A study of Mus musculus with 18 samples.

Results

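The genes described are those of the mitochondrial ribosomal proteins, the protein parts of the ribosome that works inside mitochondria. They were taken as the rows of the gene count table whose symbol is Mrpl or Mrps followed by a number and at most 1 letter, with at least 10 reads in 3 or more libraries. Of 55536 genes in the table, 78 matched by symbol and 77 met the limit on reads. All 77 were among the 17590 genes with enough reads to be tested. Mrpl53 was left out because it was listed at 0 reads in all 18 libraries, and 88.0% of its exon length is shared with other annotated genes. Nearest the limit, though well above it in all 18 libraries, stood Mrps6, with 69 to 139 reads per library, and Mrps18c, with 186 to 320.

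RNA came from islets of the pancreas of male mice aged 17 weeks, of the strain NOD.CB17-Prkdcscid/NCrCrl on the NOD.SCID background. All groups therefore carry the Prkdc scid mutation and lack mature T and B cells. The mice were WT, ZnT8 +/- (Het) or ZnT8 -/- (KO); ZnT8, the product of Slc30a8, is the transporter that loads zinc into insulin granules. After an overnight rest the islets were kept for 24 h in plain medium or in medium with 3 cytokines found at inflamed islets: IFN-γ at 10 pg/ml, IL-1β at 150 pg/ml and TNF-α at 100 pg/ml. Each of the 6 groups had 3 libraries, 18 in all. The labels speak of 3 mice and use the same numbers for the treated and untreated libraries of a genotype. They do not say that same-numbered libraries share a mouse, and the numbers were not used as pairs. The p-values thus reflect the spread among libraries only, which may be technical. The labels do not describe how the ZnT8 allele was made. The series title links loss of 1 ZnT8 copy to mitochondrial respiration.

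Libraries held 22990164 to 29946680 reads. Levels are given as CPM, read counts scaled to the library's size with TMM factors, and errors on levels are SDs over the 3 libraries of a group. Slc30a8 was at 98.8 to 125 CPM in untreated WT libraries, 95.7 to 126 in untreated Het and 44.0 to 55.9 in untreated KO. With cytokines it was at 34.5 to 46.4, 32.1 to 56.6 and 20 to 23.2. The KO libraries were thus the lowest in both conditions, while Het and WT overlapped, so the count over the whole gene does not check the Het label. The islet hormone genes were abundant in all libraries, with Ins2 at 87652 CPM or more and Gcg at 6957 or more. Libraries also held RNA of other pancreatic cells, whose values stand beside the results they move with.

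The mitochondrial ribosome makes the few proteins encoded in mitochondrial DNA, which are core subunits of the respiratory chain and the ATP synthase. Its RNAs are transcribed in the organelle, whereas its proteins are encoded in the nucleus, made in the cytosol and imported. Some of these proteins have a counterpart in bacterial ribosomes and others were added in the mitochondrial lineage. In beta cells, oxidative phosphorylation supplies the ATP that closes potassium channels and triggers insulin release. Of the 77 genes, 50 encode proteins of the large subunit and 26 of the small one. Mrps18a and Mrps30 count with the large subunit, where their proteins sit in the mammalian ribosome in spite of their names. Mrps36 was placed in neither, since its product is also known as a part of the 2-oxoglutarate dehydrogenase complex. By origin, 46 have a bacterial counterpart, 28 are specific to mitochondria and 3 were not classed.

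The 77 genes were expressed at moderate levels that hardly varied. Together they took 0.194% to 0.210% of the reads of a library, and their summed level ran from 1915 to 2094 CPM, a range of 1.09-fold. In untreated islets the sum was 1971 ± 80.6 CPM in WT, 1987 ± 62.7 in Het and 1969 ± 54.5 in KO (n = 3 each). With cytokines it was 2046 ± 38, 2009 ± 6.22 and 2039 ± 90.4. In each genotype the treated and untreated libraries overlapped in this sum. The median of the members' biological coefficient of variation, the spread between replicates beyond counting error, was 0.0668. Over the 8882 genes of the same CPM range it was 0.0854, and 71 of the 77 members were below that. From the lowest to the highest library a member differed by a median of 1.298-fold, against 1.51-fold for those 8882 genes, and 1 member, Mrpl33, varied over 2-fold.

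**Figure D1:**
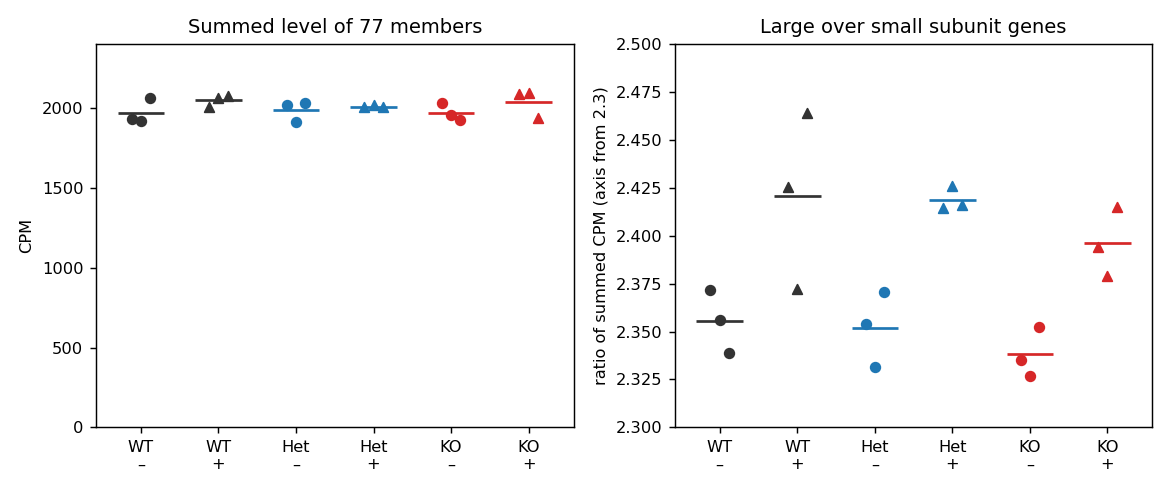
Left, summed CPM of the 77 members in each library; right, the ratio of the summed CPM of the 50 large to the 26 small subunit genes, on an axis that does not start at 0. Circles are untreated and triangles cytokine-treated libraries, and lines are means of 3; the sums overlap, while the mean ratio is higher with cytokines in each genotype (2.42, 2.42 and 2.40 against 2.36, 2.35 and 2.34).

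Between members, levels were compared per kilobase of the longest protein-coding transcript. The median was 16.6 CPM per kb, against 6.15 over 14751 protein-coding genes tested. Mrpl52 was highest at 89.6 CPM per kb (72.7 to 101 over the 18 libraries), followed by Mrpl54 at 76.6 (63.0 to 90.5) and Mrps21 at 55.4 (50.6 to 61.4). The ranges of Mrpl52 and Mrpl54 overlapped, and those of Mrpl54 and Mrps21 did not. At the other end stood Mrps25 at 1.95 (1.49 to 2.22), Mrpl19 at 2.86 (2.42 to 3.17) and Mrps35 at 3.64 (3.07 to 3.99). The ranges of Mrpl19 and Mrps35 overlapped, and Mrps25 lay below both. These low values rest on long annotated transcripts, from 4.16 to 6.07 kb, and the high value of Mrpl52 on a short one of 463 bases. The order thus depends on which transcript the islets use. Of the exon length of Mrps25, 69.8% is shared with Nr2c2, and of that of Mrpl19, 36.0% with Gcfc2. Both neighbours lie on the other strand, and reads there cannot be assigned without strand. The median was 18.2 CPM per kb for large and 12.3 for small subunit genes.

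**Figure D2:**
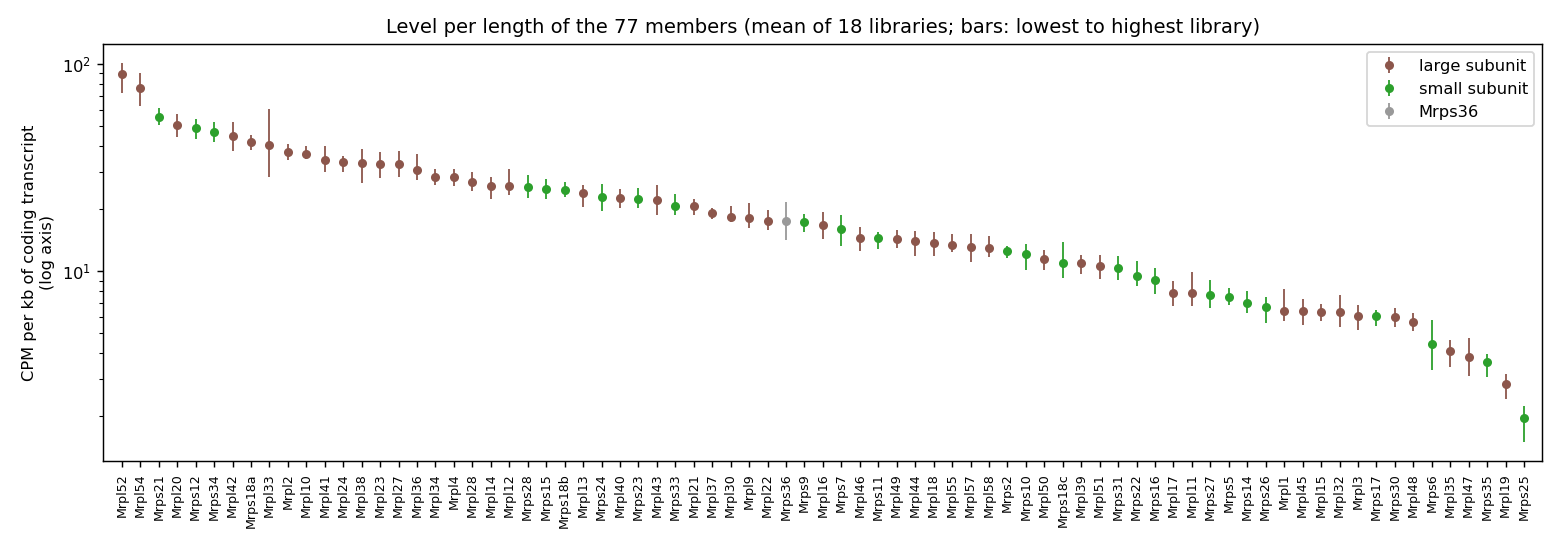
Mean CPM per kb of the longest coding transcript for each of the 77 members over 18 libraries, on a log axis, with bars from the lowest to the highest library. Members run from 89.6 (Mrpl52) to 1.95 (Mrps25), and the bars of most are short beside that span; Mrpl33 has the longest.

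The first question of the design is what the cytokines did in each genotype. Most mitochondrial ribosomal protein genes did not pass the test, and those that did moved in both directions by small amounts. With edgeR's quasi-likelihood test and a Benjamini-Hochberg adjusted p of at most 0.05 over all genes tested, 9 members rose and 2 fell in WT islets, which is 14.3% of them. Of all genes tested, 25.7% were called in WT, 12.5% higher and 13.1% lower. In Het islets 5 rose and 4 fell, or 11.7% of the members, where 24.5% of all genes were called, 12.7% higher and 11.7% lower. In KO islets 11 rose and 7 fell, or 23.4%, where 31.3% of all genes were called, 15.3% higher and 16% lower. In each genotype the share of members called was below that of all genes. Without adjustment, 16 members had a p under 0.05 in WT (36.7% of all genes did), 20 in Het (35.1%) and 24 in KO (41.3%).

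These counts depend on single libraries, and the shares of all genes called in such fits were not counted. In WT 5 members rose without treated replicate 3 or untreated replicate 2. In WT 1 fell without treated replicate 1, treated replicate 2 or untreated replicate 2, and 0 without untreated replicate 1. In Het 3 rose without treated replicate 1 or 3, 2 rose without untreated replicate 2, and 2 fell without treated replicate 3. In KO 3 fell without treated or untreated replicate 1, and 4 without treated replicate 3 or untreated replicate 2.

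The members' median change was near 0 in each genotype. The median log2 change with cytokines was 0.02 in WT, -0.01 in Het and 0.02 in KO, against -0.01, -0.03 and -0.03 over all genes. The median size of the change, whatever its sign, was 0.0867, 0.0831 and 0.0956 on the log2 scale, against 0.216, 0.203 and 0.2404 over all genes. The interval of 2 SE on each side lay within 1.5-fold of no change for 76, 76 and 74 of the 77 members, against 51.5%, 52.5% and 50% of all genes. For nearly all members, then, changes above 1.5-fold lay outside this interval; Mrpl33 was outside these counts in each genotype.

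Over the 3 genotypes 19 members were called at least once, or 24.7% against 40.2% of all genes tested. Of these, 12 rose and 7 fell, and none was called in both directions. Mrpl33, Mrpl38, Mrpl11 and Mrpl51 rose in all 3 genotypes, and Mrpl42 and Mrpl47 fell in all 3. These 6 all encode large subunit proteins. Treated and untreated libraries did not overlap for 24 members in WT, 25 in Het and 24 in KO, called or not. The share of all genes without overlap was not counted, so a lack of overlap alone sets no member apart. Of the 58 members never called, the largest estimated change was 0.31 on the log2 scale, for Mrps6 in KO islets (SE 0.16, adjusted p = 0.161 by edgeR).

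**Figure D3:**
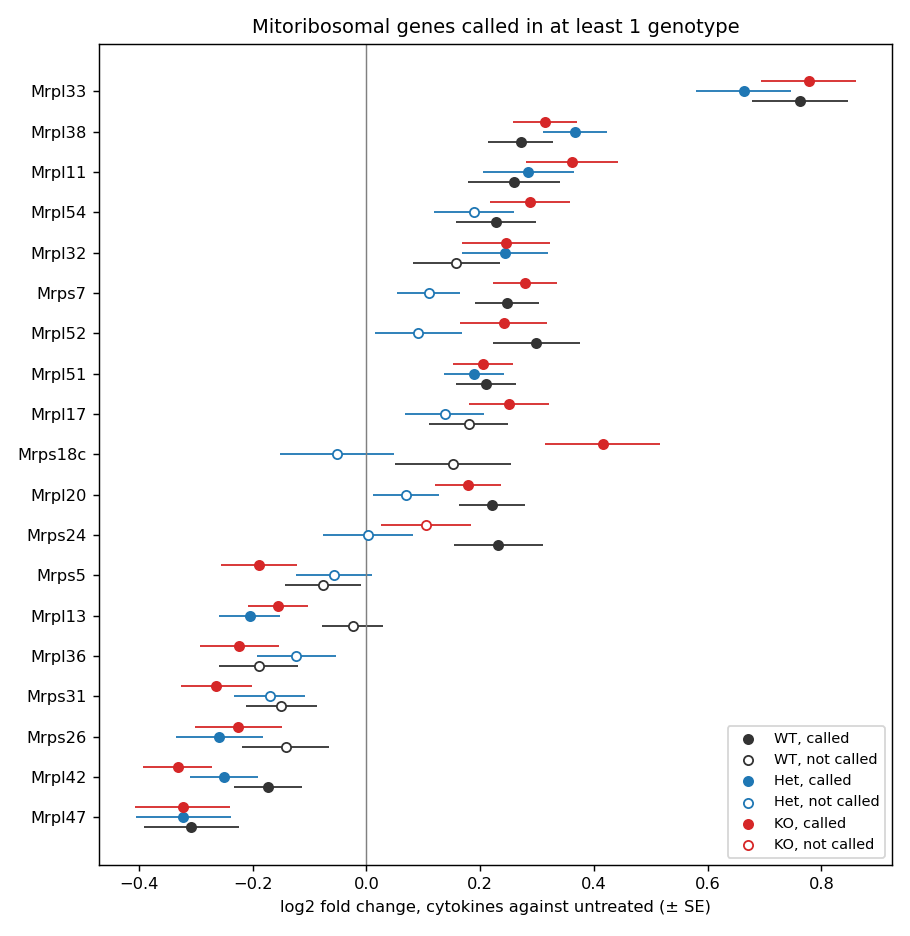
Log2 fold change with cytokines (± SE, from the model over 18 libraries) of the 19 members called in at least 1 genotype, in WT, Het and KO islets; filled points passed the adjusted p of 0.05. Mrpl33 stands apart at 0.66 to 0.78, and the other estimates lie between -0.33 and 0.42.

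Mrpl33 changed most. Its product is a small protein of the large subunit with a counterpart in bacteria, and the gene lies at chr5:31596935-31664384 on the plus strand (GRCm38, GENCODE M21). In untreated WT islets it was at 14.2, 13.6 and 14.7 CPM, and with cytokines at 23.3, 24.4 and 24.4. In Het islets it was at 14.6, 13.6 and 16.7 untreated and at 23.3, 24.0 and 23.9 treated. In KO islets it was at 15.0, 14.4 and 14.8 untreated and at 29.0, 23.1 and 23.6 treated. Each treated library was above each untreated one, and the 3 genotypes overlapped within a treatment. The log2 change was 0.76 ± 0.08 (SE) in WT, 0.66 ± 0.08 in Het and 0.78 ± 0.08 in KO, or 1.70-, 1.58- and 1.71-fold, with adjusted p = 6.53e-06, 2.14e-05 and 3.15e-06 by edgeR. The annotated gene holds 7326 bases of exon, far more than the 478 bases of its longest coding transcript. A count over the gene does not tell the coding transcript from the longer noncoding ones that start upstream.

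Mrpl38 kept its call in each genotype without any single library. Its protein is specific to mitochondria and sits in the central protuberance of the large subunit; the gene lies at chr11:116131817-116138868 on the minus strand. In WT islets it was at 42.3, 40 and 45 CPM untreated and at 52.1, 50.6 and 50.9 with cytokines. In Het islets the values were 43.2, 39.9 and 42.6 against 53.0, 54.3 and 54.7, and in KO islets 43.0, 42.3 and 37.5 against 52.0, 52.0 and 48.7. Again no treated library overlapped an untreated one. It rose by 0.27, 0.37 and 0.31 on the log2 scale (SE 0.06 each), with adjusted p = 0.00211, 0.000156 and 0.000483 by edgeR.

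Mrpl11 encodes the counterpart of bacterial L11, at the base of the stalk where translation factors bind; it lies at chr19:4962147-4966999. It was at 20.8, 21.6 and 21.9 CPM in untreated WT islets and at 24.2, 26.9 and 26 with cytokines. In Het islets it was at 22.9, 21.0 and 21.9 untreated and 27.1, 25.3 and 27.6 treated, and in KO islets at 20.6, 20.5 and 20.8 untreated and 27.2, 30.0 and 22.5 treated. The treated KO libraries spread widely but stayed above the untreated ones. The log2 changes were 0.26, 0.28 and 0.36 (SE 0.08 each), with adjusted p = 0.0258, 0.0161 and 0.00265 by edgeR. The call in WT was lost without any 1 of 5 libraries, all but treated replicate 1, with adjusted p up to 0.0871. The call in Het was lost without treated replicate 1 (0.0523), treated replicate 3 (0.0634) or untreated replicate 2 (0.0674).

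Mrpl51, a mitochondria-specific protein of the large subunit, lies at chr6:125191801-125196269. It was at 33.5 ± 1.7 CPM untreated and 38.7 ± 0.74 treated in WT, 33.4 ± 2.0 and 38.1 ± 1.0 in Het islets, and 33.9 ± 0.80 and 39.0 ± 1.7 in KO. Treated and untreated libraries did not overlap in any genotype. The log2 changes were 0.21, 0.19 and 0.21 (SE 0.05 each), with adjusted p = 0.00793, 0.0156 and 0.00759 by edgeR. In Het the call was lost without treated replicate 1 (0.0668), untreated replicate 1 (0.0526) or untreated replicate 2 (0.0755).

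The other pair moved the opposite way. Mrpl42, a mitochondria-specific protein of the large subunit encoded at chr10:95480805-95501940, was at 29.9, 30.8 and 31.5 CPM in untreated WT islets and at 27.7, 25.3 and 28.8 with cytokines. In Het islets it was at 34.6, 31.9 and 32.2 against 29.1, 28.1 and 25.8, and in KO islets at 34.0, 31.9 and 34.8 against 27.1, 26.9 and 26.1. All treated libraries were below all untreated ones of their genotype. The log2 change was -0.17 in WT, -0.25 in Het and -0.33 in KO (SE 0.06 each), with adjusted p = 0.0458, 0.00594 and 0.000509 by edgeR. The WT call was lost without any 1 of 5 libraries, all but treated replicate 3, with adjusted p up to 0.277. It was also lost with DESeq2 (0.0768), with RLE size factors (0.0565), with no filter on low counts (0.135), with the 2 groups alone (0.0761) and with each of 3 replicate blocks (0.052 to 0.066). The Het call of Mrpl42 was lost with the 2 groups alone (0.0617).

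Mrpl47 encodes the counterpart of bacterial L29, a protein at the exit of the tunnel for the nascent chain, and lies at chr3:32725397-32737605. It was at 15.0, 13.3 and 14.6 CPM in untreated WT islets and at 11.4, 11.7 and 11.6 with cytokines. In Het islets it was at 15.6, 12.3 and 13.5 against 11.3, 10.5 and 11.3, and in KO islets at 15.3, 15.9 and 14.1 against 11.7, 12 and 12.5. The groups did not overlap. It fell by 0.31 in WT and by 0.32 in both Het and KO on the log2 scale (SE 0.08 each), with adjusted p = 0.0121, 0.00958 and 0.00708 by edgeR. The call was lost in WT without untreated replicate 1 (0.0515) and in Het without untreated replicate 1 (0.0529). Of its exon length, 24.2% is shared with Actl6a and Ndufb5 on the other strand, and reads there cannot be assigned without strand.

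**Figure D4:**
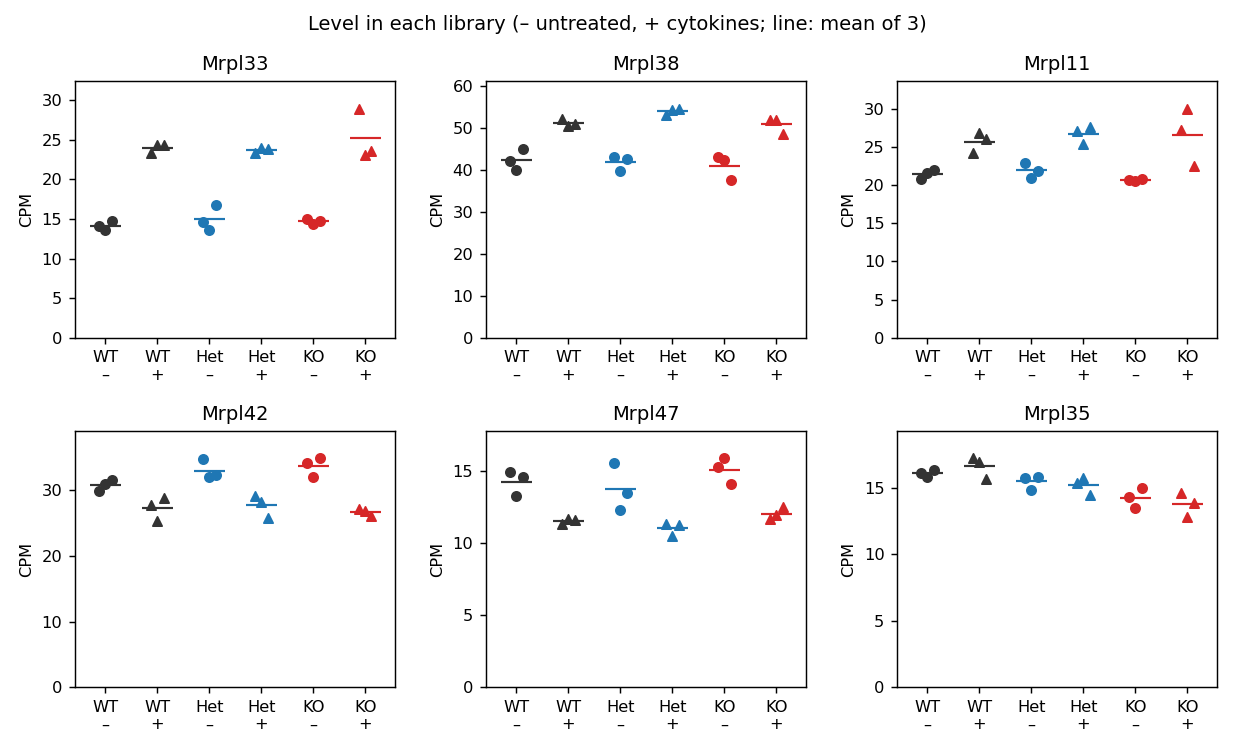
CPM of 6 members in each library, by genotype, without (–, circles) and with (+, triangles) cytokines; lines are means of 3 and axes start at 0. Mrpl33, Mrpl38 and Mrpl11 are higher and Mrpl42 and Mrpl47 lower in treated libraries of each genotype without overlap, and Mrpl35 has its lowest mean in KO islets in both conditions, where KO libraries overlap those of Het.

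A further 7 members were called in 2 genotypes and 6 in 1. Mrpl20, Mrpl52, Mrpl54 and Mrps7 rose in WT and KO. Mrps7, whose bacterial counterpart S7 organises the head of the small subunit, was at 29.4 ± 1.1 CPM in untreated and 34.9 ± 1.7 in treated WT islets, and at 27.4 ± 1.4 and 33.3 ± 1.9 in KO. In Het islets it was at 30.5 ± 0.86 and 33.0 ± 0.54, a log2 change of 0.11 ± 0.06 that did not pass (adjusted p = 0.177 by edgeR). Mrpl52 changed by 0.30 in WT and 0.24 in KO, and by 0.09 in Het (SE 0.08 each; adjusted p = 0.433 in Het by edgeR). Mrpl54 changed by 0.23, 0.19 and 0.29 in WT, Het and KO (SE 0.07 each), with adjusted p = 0.0249, 0.0623 and 0.00515 by edgeR. The WT call of Mrpl54 was lost without treated replicate 3 (0.0958), untreated replicate 1 (0.111) or untreated replicate 2 (0.075). That of Mrpl20 was lost without treated replicate 3 (0.0511) or untreated replicate 2 (0.0514).

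Mrpl32, whose product is trimmed by the m-AAA protease before it joins the ribosome, rose in Het and KO by 0.24 and 0.25 on the log2 scale. Mrpl13 and Mrps26 fell in Het and KO, Mrpl13 by 0.21 and 0.16 and Mrps26 by 0.26 and 0.23. In KO alone the test called Mrpl17 and Mrps18c higher and Mrpl36, Mrps31 and Mrps5 lower, and in WT alone Mrps24 higher (0.23 ± 0.08). Calls in 1 or 2 genotypes do not show that the genotypes differ; the tests of that difference follow further on. Of the 36 cytokine calls recomputed without single libraries, 18 held without any 1 of them and 18 were lost without at least 1. Those lost include all the calls of Mrpl13, Mrpl17, Mrpl32, Mrpl36, Mrps24, Mrps26 and Mrps5.

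The calls were also counted by subunit. Of the 50 large subunit genes, 7 rose and 2 fell in WT, 5 rose and 3 fell in Het, and 9 rose and 4 fell in KO. Of the 26 small subunit genes, 2 rose and 0 fell in WT, 0 rose and 1 fell in Het, and 2 rose and 3 fell in KO. The summed CPM of the large subunit genes over that of the small was 2.36 ± 0.016 in untreated WT islets and 2.42 ± 0.046 with cytokines. It was 2.35 ± 0.020 against 2.42 ± 0.0063 in Het, and 2.34 ± 0.013 against 2.40 ± 0.018 in KO. The libraries did not overlap in Het and KO, and in WT the highest untreated and the lowest treated library were both at 2.37. Without Mrpl33 the means were 2.33 against 2.38 in WT, 2.33 against 2.38 in Het and 2.31 against 2.35 in KO, and the WT libraries then overlapped. These ratios were seen after the values were known and were not tested.

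The same was done by origin, with no test of the difference. In WT 5 of 46 bacterial-type members rose and 1 fell, and 4 of 28 mitochondria-specific members rose and 1 fell. In KO the counts were 7 and 4 against 4 and 3. The medians of the log2 change were 0.04 and 0.02 in WT, 0.01 and -0.02 in Het islets, and 0.04 and -0.01 in KO.

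Some members were followed because of their place in the particle. Mrpl12 encodes the stalk protein that binds translation factors and has also been described as a partner of the mitochondrial RNA polymerase. It was at 33.3 ± 1.1 CPM in untreated and 37.9 ± 2.5 in treated WT islets, at 35.6 ± 4.9 and 32.5 ± 0.84 in Het, and at 31.3 ± 0.82 and 32.6 ± 1.6 in KO. None of these changes passed (0.19, -0.13 and 0.06 on the log2 scale; adjusted p = 0.0968, 0.244 and 0.621 by edgeR). In Het the change of Mrpl12 passed without untreated replicate 1 (adjusted p = 0.0347), the library with the lowest limma quality weight. In WT the change of Mrpl12, in the other direction, passed with limma voom (0.0139), and with edgeR on the 2 groups alone (0.0399) or without the 2 libraries of lowest weight (0.0444). Mrps12, at the decoding centre, changed by 0.05, 0.07 and 0.02 with SE 0.07 in each genotype. Mrps30, of the large subunit, changed by 0.02, -0.02 and -0.02 with SE 0.07 each, and neither gene passed in any genotype.

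Among the 3 relatives of bacterial S18, Mrps18c alone was called, and in KO only. Mrps18a, whose protein lies in the large subunit, changed by 0.10, -0.03 and -0.03 in WT, Het and KO, and Mrps18b by 0.01, 0.08 and 0.03, with SE 0.06 each and no call. Mrps18c, at 7.69, 8.06 and 8.07 CPM in untreated WT islets, was at 8.60, 9.93 and 7.95 with cytokines. In Het islets it was at 10.1, 8.18 and 9.52 against 9.53, 8.42 and 8.90, and the libraries overlapped in both genotypes. In KO islets it was at 8.76, 7.55 and 7.93 against 11.3, 10.4 and 10.6, without overlap. The log2 change was 0.42 ± 0.10 in KO (adjusted p = 0.00494 by edgeR), 0.15 ± 0.10 in WT (0.302) and -0.05 ± 0.10 in Het (0.766). Of its exon length, 23.2% is shared with Gm43511.

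Promoter sequences are shown for 4 members that moved in all 3 genotypes and for 2 with matches to the motif of the respiratory factor NRF1, which is known to act on many nuclear genes of mitochondria. They come from RefSeq (GRCm38.p6) and give the 120 bases that end 1 base before the annotated start, 5′ to 3′ on the gene's strand. Capitals mark a match, on either strand, to CGCANGCG (a core of NRF1 sites) or CCGGAAG (the core bound by ETS factors such as GABP). A match of Mrpl33 to CCGGAAG that begins at -3 from the start is not marked, since it runs past these bases. A sequence without capitals has neither in full within these bases. The first 2 rose in all 3 genotypes, the next 2 fell in all 3, and the last 2 rose in KO, Mrpl32 also in Het. They lie at chr5:31613831-31613950, chr6:125192080-125192199, chr10:95501950-95502069, chr3:32736756-32736875, chr13:14613038-14613157 and chr7:105811088-105811207, in the order given.
Mrpl33: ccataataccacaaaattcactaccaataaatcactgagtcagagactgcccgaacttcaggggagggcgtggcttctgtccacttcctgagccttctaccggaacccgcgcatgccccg
Mrpl51: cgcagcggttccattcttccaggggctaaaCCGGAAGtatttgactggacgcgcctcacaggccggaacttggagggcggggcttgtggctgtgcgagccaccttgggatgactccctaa
Mrpl42: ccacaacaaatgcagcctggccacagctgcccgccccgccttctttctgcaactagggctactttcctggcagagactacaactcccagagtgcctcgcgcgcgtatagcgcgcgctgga
Mrpl47: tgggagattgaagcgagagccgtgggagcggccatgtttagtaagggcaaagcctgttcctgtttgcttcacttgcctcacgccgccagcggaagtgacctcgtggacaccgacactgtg
Mrpl32: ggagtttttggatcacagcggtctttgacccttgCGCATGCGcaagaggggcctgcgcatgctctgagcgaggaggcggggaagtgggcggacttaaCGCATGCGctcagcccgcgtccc
Mrpl17: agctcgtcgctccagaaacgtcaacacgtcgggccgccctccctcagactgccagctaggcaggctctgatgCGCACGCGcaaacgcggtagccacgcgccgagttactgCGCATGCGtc

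RefSeq windows from 250 bases before to 50 after the start were matched for 68 of the 77 members, 74 windows in all, and compared with 32851 windows of 27025 genes. Members' windows were richer in G and C (median 58.5% against 52.7%) and in CpG (observed over expected 0.819 against 0.384). Motifs were searched on both strands and counted by gene, so that a gene with several windows counts once. CGCANGCG was found for 29.4% of members and 9.22% of all genes. Besides Mrpl32 and Mrpl17, which rose in KO, these members include Mrps26, which fell in Het and KO, and Mrpl12, which was not called. CCGGAAG was found for 36.8% and 9.93%, and AAGATGGCG, a core of YY1 sites, for 11.8% and 1.64%. CACGTG, the E-box core, was found for 7.35% and 8.09%. For the factors that the cytokines act through, GGGANTTCC, a core of NF-kB sites, was found for 0 of 68 members and 1.92% of all genes, and GAAANNGAA, a core of interferon response elements, for 10.3% and 9.76%. Each motif was counted on its own, whether or not its matches overlapped those of another. A match is a description of these letters and not a site. The 27025 genes were not matched to the members in CpG or level. With GGGANTTCC so rare over all genes, 0 of 68 members does not show a lack of it. The members lie on 17 chromosomes, and 17 of them (22.1%) start within 500 bases of a protein-coding gene on the opposite strand that points away, against 6.14% of 22028 protein-coding genes.

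The genes that work with the mitochondrial ribosome were described from lists fixed by function. Of 5 subunits with other symbols, Chchd1 rose (0.23 ± 0.07) and Gadd45gip1 fell (-0.25 ± 0.07) in KO, and 0 were called in WT and Het. Of 25 assembly factors, 1 rose in each genotype while 3 fell in WT, 2 in Het and 3 in KO. The one that rose was Malsu1, a factor that keeps the large subunit from joining too early, by 0.32, 0.30 and 0.22. Those that fell were Mtg1 (-0.39 in WT and -0.24 in KO), Tfb1m (-0.40 in WT), Mettl17 (-0.36 in Het and -0.32 in KO) and Rbfa (-0.22 in Het and -0.31 in KO) as well as Dhx30 in WT (-0.15), which was named after its values were seen. Tfb1m methylates the small ribosomal RNA and Rbfa acts in maturation of the small subunit.

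Of 15 translation factors, 2 rose and 1 fell in WT, 1 rose and 1 fell in Het, and 0 rose and 1 fell in KO. Slirp rose by 0.26 in WT islets and by 0.24 in Het islets, Tufm, the elongation factor that brings aminoacyl-tRNA, rose in WT (0.18), and the GTPase gene Guf1 fell in all 3 (-0.28, -0.32 and -0.31). Of 20 genes for charging mitochondrial tRNA, 0 rose and 2, 2 and 4 fell. Rars2 (-0.30, -0.32 and -0.26) and Cars2 (-0.27, -0.46 and -0.35) fell in all 3 genotypes, and Sars2 (-0.46) and Vars2 (-0.30) in KO. Of 13 genes for mitochondrial DNA, its transcription and RNA processing, 1 fell in each genotype. Tfam, which packs mitochondrial DNA and takes part in its transcription, fell in WT (-0.17) and Het (-0.20). Twnk, the gene of the helicase of mitochondrial DNA, fell in KO (-0.21). Of the 13 mitochondrially encoded protein genes, edgeR called 0 in each genotype, with 0, 1 and 0 at an unadjusted p under 0.05 in WT, Het and KO. Their mean levels were uneven, at 0.889 CPM for mt-Atp8, 1.35 for mt-Nd3 and 2.99 for mt-Nd4l, against 3789 for mt-Co1. mt-Co2, mt-Co3 and mt-Atp6 were at 15.9, 16.8 and 17.4. With an SE of 0.47 for mt-Atp8 in WT, the lack of a call says little about the lowest of them.

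The RNA parts of the same ribosome are encoded in mitochondrial DNA. mt-Rnr2, the large ribosomal RNA, was at 587, 456 and 422 CPM in untreated Het islets and at 445, 255 and 286 with cytokines. It fell by 0.57 on the log2 scale in Het (SE 0.20, adjusted p = 0.0495 by edgeR), although 1 treated library lay within the untreated range. This call, close to the threshold, was not recomputed without single libraries or with other tools. The change of mt-Rnr2 was -0.00084 in WT and -0.14 in KO, and did not pass. mt-Rnr1, the small ribosomal RNA, changed by -0.60 ± 0.22 in Het (adjusted p = 0.0675 by edgeR). The summed level of mt-Rnr1 and mt-Rnr2 varied widely, from 369 to 860 CPM over the libraries, or 2.33-fold.

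The cytosolic ribosome and the respiratory chain offer a comparison. Among 80 cytosolic ribosomal protein genes, 20 rose in WT, 5 in Het and 31 in KO, and 0 fell in any, with medians of 0.12, 0.05 and 0.15 on the log2 scale. Among 80 nuclear genes for oxidative phosphorylation subunits, 15, 9 and 26 rose and 4, 4 and 5 fell, with medians of 0.06, 0.04 and 0.10. The members' 9, 5 and 11 rising and 2, 4 and 7 falling genes had medians of 0.02, -0.01 and 0.02. The differences between these groups were not tested.

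Markers of islet cell types and of other cells moved with treatment. The summed level of 9 mesenchymal markers was 1399 to 1590 CPM in untreated and 674 to 1239 in treated WT islets, 902 to 2678 and 420 to 1049 in Het, and 1353 to 3429 and 456 to 1659 in KO. Of these markers 2, 6 and 1 fell. The 6 duct markers summed to 1746 to 2761 and 3596 to 6612 in WT, 1602 to 4827 and 3423 to 4507 in Het, and 1276 to 1841 and 2960 to 3868 in KO, and 2, 0 and 2 of them rose. The 7 alpha cell markers summed to 11166 to 15424 CPM untreated and 7309 to 9821 treated in WT, 12908 to 19100 and 8976 to 10057 in Het, and 14276 to 19481 and 8747 to 12997 in KO, and 3 of 7 fell in each genotype.

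Of 10 beta cell markers 6 fell in each genotype and 1 rose in KO, and their median log2 changes were -0.85, -0.79 and -1.01. Their summed level, most of it insulin RNA, was 166556 to 192258 CPM untreated and 143823 to 162808 treated in WT, and overlapped in Het and KO. Of 4 delta cell markers 3 fell in WT, 1 in Het and 2 in KO, and their sums did not overlap in any genotype. The 7 macrophage markers summed to 130 to 170 CPM untreated and 265 to 502 treated in WT, 98 to 251 and 264 to 355 in Het, and 96.3 to 248 and 167 to 235 in KO. Only 1 of these 7 rose in WT, 0 in Het and 1 in KO, while 1 fell in Het and 1 in KO. No marker of these lists was at 0 in any library, and their part in the members' changes was not tested. In bulk RNA, fewer cells of a type and less RNA per cell cannot be told apart.

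The second question is whether ZnT8 genotype changed these genes. In 5 of 6 comparisons of genotypes edgeR called 0 of the 77 members. The exception was Mrpl35, which fell in KO against WT with cytokines, where 5.33% of all genes were called and 3.8% were called lower. In the other comparisons with cytokines, 0% of all genes were called for Het against WT and 0.00569% for KO against Het. In untreated islets these shares were 0.00569% for Het against WT, 2.94% for KO against WT and 0% for KO against Het. Outside KO against WT, then, edgeR called hardly any gene of any kind. Without adjustment, 2 members had a p under 0.05 for Het against WT untreated (6.97% of all genes did), 3 for KO against WT (18.3%) and 6 for KO against Het (14.6%). With cytokines 3 did for Het against WT (7.03%), 7 for KO against WT (24%) and 1 for KO against Het (8.32%). DESeq2 called the same numbers, and limma voom with quality weights called 3 for KO against Het untreated, where by that tool 13% of all genes were called. It called 9 for KO against WT with cytokines, where it called 23.1% of all genes, and 0 in the other 4. Among these, limma voom called 9.98% of all genes for KO against WT untreated and 0.87% for KO against Het with cytokines. For Het against WT it called 0.00569% untreated and 0.671% with cytokines. Of the genes it tested, DESeq2 called 6.12% for KO against WT untreated, 10.9% with cytokines and 2.38% for KO against Het untreated. Its shares were 0.45% for Het against WT untreated, 0.358% with cytokines, and 0.34% for KO against Het with cytokines.

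The members' median log2 difference was 0.01 for Het against WT and 0.0032 for KO against WT in untreated islets, and -0.01 and 0.0035 with cytokines. For KO against Het it was -0.02 untreated and 0.01 treated. The interval of 2 SE on each side lay within 1.5-fold of no difference for 76 or 77 of the 77 members in each of the 6 comparisons. These comparisons share libraries with each other, so their values are given side by side only.

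**Figure D5:**
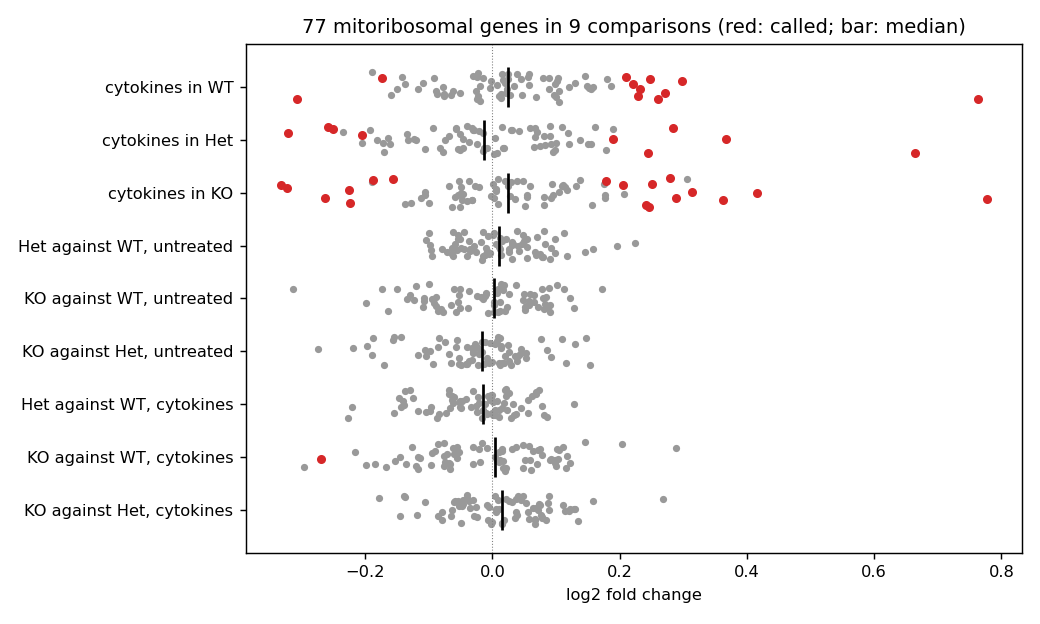
Log2 fold change of each of the 77 members in 9 comparisons; red points passed the adjusted p of 0.05 and bars are medians. Cytokines give 11, 9 and 18 calls on both sides of 0, genotype gives 1 call, and all medians lie between -0.02 and 0.02.

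Mrpl35, at chr6:71812997-71826969 on the minus strand, encodes the counterpart of bacterial L35 in the large subunit. With cytokines it was at 17.2, 16.9 and 15.7 CPM in WT, 15.3, 15.7 and 14.5 in Het islets, and 14.6, 12.8 and 13.9 in KO. The KO libraries were all below the WT ones, and Het overlapped with both. The log2 difference of KO from WT was -0.27 ± 0.07 (adjusted p = 0.0298 by edgeR), and that of KO from Het was -0.14 ± 0.07 (0.602). In untreated islets it was at 16.1, 15.8 and 16.3 in WT, 15.8, 14.9 and 15.8 in Het islets, and 14.3, 13.5 and 15.0 in KO. There KO also lay below WT without overlap, by -0.17 ± 0.07, which did not pass (adjusted p = 0.177 by edgeR). In that untreated comparison groups did not overlap for 9 of the 77 members, and 0 were called. With cytokines KO and WT did not overlap for 14 members, of which 1 was called. The share of all genes without overlap was not counted. The call of Mrpl35 with cytokines was lost without treated KO replicate 2 (0.156), treated WT replicate 1 (0.117) or treated WT replicate 2 (0.124). It was also lost with no filter on low counts (0.1102) or a fit on the 2 groups alone (0.0982).

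Mrps15, the counterpart of bacterial S15, had the smallest p for KO against Het in untreated islets. It was at 23.6, 24.4 and 23.8 CPM in WT, 24.1, 26 and 25 in Het islets, and 21.4, 21.8 and 21.4 in KO. The KO libraries were below all others, by -0.22 ± 0.06 from Het and -0.15 ± 0.06 from WT (adjusted p = 0.181 and 0.222 by edgeR). In untreated islets groups did not overlap for 7 of the 77 members in KO against Het and for 9 in KO against WT. The share of all genes was not counted there either, so this lack of overlap does not set Mrps15 apart. The difference of Mrps15 from Het passed with limma voom (adjusted p = 0.0178) and with edgeR without Het untreated replicate 1 (0.0386). With cytokines Mrps15 was at 24.5, 24.6 and 24.5 in WT, 22.2, 23.5 and 21.0 in Het islets, and 24.2, 24.9 and 20.8 in KO, and KO overlapped with both. Among the other members of smallest p, Mrps18c was 0.22 ± 0.10 higher in Het than WT untreated (0.697) and 0.27 ± 0.10 higher in KO than Het with cytokines (0.512). Mrps24 and Mrpl12 were -0.23 ± 0.08 and -0.22 ± 0.08 from WT in Het with cytokines (0.601 and 0.618), and Mrps7 was -0.16 ± 0.06 from Het in untreated KO (0.238).

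Acinar markers moved with genotype. The 22 acinar markers summed to 9601 to 9647 CPM in untreated WT islets, 3319 to 5009 in Het and 1862 to 2878 in KO, and to 6440 to 12308, 3216 to 4980 and 938 to 2091 with cytokines. Of the 22, 21 were called lower in KO than WT untreated and 20 with cytokines. Of 7 endothelial markers 2 were lower in KO than WT untreated and 4 with cytokines, and of 6 duct markers 2 in both. None of these markers was at 0 in any library, and their part in the difference of Mrpl35 was not tested. In the lists beside the members, KO against WT with cytokines gave 1 call among 15 translation factors, Tufm (-0.23 ± 0.06, adjusted p = 0.0305 by edgeR). It gave 0 among the 5 other subunits, 25 assembly factors, 20 tRNA charging genes and 13 genes for mitochondrial DNA, its transcription and RNA processing.

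The third question is whether genotype altered the response to cytokines. The interaction tests of edgeR called 0 of 77 members for Het against WT, KO against WT and KO against Het, as did DESeq2 and limma voom. Of all genes edgeR called 0%, 0.0114% and 0%, DESeq2 0%, 0.365% and 0.00569% of those it tested, and limma voom 0%, 0.0853% and 0%. Unadjusted, 3, 0 and 3 members had a p under 0.05, against 4.79%, 6.73% and 5.73% of all genes. The median SE of a member's interaction was 0.10 on the log2 scale, and the interval of 2 SE on each side lay within 1.5-fold of no difference for 77, 76 and 75 members.

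The members with the smallest p for Het against WT were Mrpl12, Mrpl13 and Mrps15. The response of Mrpl12 was 0.32 lower in Het than in WT on the log2 scale (interaction -0.32 ± 0.11, adjusted p = 0.881 by edgeR). For KO against Het they were Mrps18c (0.47 ± 0.14), Mrps15 (0.29 ± 0.09) and Mrps7 (0.17 ± 0.08), with adjusted p = 0.823, 0.823 and 0.866. For KO against WT they were Mrpl42 (-0.16 ± 0.09), Mrps18c (0.26 ± 0.14) and Mrpl13 (-0.13 ± 0.08), with adjusted p = 0.804, 0.811 and 0.833. For Mrpl33, the member that responded most, the 3 genotypes gave 0.76, 0.66 and 0.78 with SE 0.08. The differing numbers of calls in WT, Het and KO islets are thus not shown to be differences between genotypes.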

How the data were processed

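RNA-seq was done on 18 libraries of mouse islets. The authors deposited a table of unnormalized counts, whole numbers of reads, for 55536 genes, and a second one with the same counts for 25253 of them. FastQC 0.11.7, cutadapt 1.16, STAR 2.5.2a, featureCounts 1.6.2, DESeq2 1.30.0 and build GRCm38 are named without roles per the submitters' processing notes; they do not state whether counting used strand, which leaves genes that overlap uncertain (32 members share some exon with another gene, 9 over 20%).

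From the full table, genes were kept by filterByExpr (count minimum 10; 17590 genes), scaled by TMM and fitted with edgeR 4.0.16 (R 4.3.3, quasi-likelihood, robust) with 1 mean per group and 12 residual degrees of freedom. The 12 comparisons were cytokines in each genotype, genotype pairs in each treatment and interactions. Adjusted p-values are Benjamini-Hochberg over all genes tested, threshold 0.05. Alternatives used limma 3.58.1 and DESeq2 1.42.0. Figures used Python 3.11.15 and matplotlib 3.10.9.

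Named members are the up to 8 of largest change per direction among those called with cytokines, the called or the 3 of smallest p in genotype comparisons, those called alike in all 3 genotypes, 6 fixed members, the 3 of highest and lowest level per length, those nearest the limit on reads, and up to 3 called genes per list; calls outside these (Mrpl20 and Mrpl52 in KO) are named for completeness. Members, lists, classes and this rule were chosen with earlier results of these data known. No 2 libraries were identical. Same-numbered treated and untreated libraries of a genotype did not deviate together throughout, so the numbers were not used as pairs.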

Additional observations from a re-analysis of the deposited data

Results flagged for a closer look

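Mrps15 drew attention because its treated libraries all lay above the untreated ones in WT islets and all below them in Het islets. The log2 change with cytokines was 0.0378 ± 0.06 (SE) in WT and -0.17 ± 0.06 in Het, and neither passed (adjusted p = 0.711 and 0.0604 by edgeR). In KO islets it was 0.11 ± 0.06 with overlapping libraries. The interaction of Het and WT was -0.21 ± 0.09, with an unadjusted p of 0.0333 and an adjusted p of 0.881 by edgeR, so the difference did not pass.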

How the results depend on the processing

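Medians of the 77 members and ratios of their summed level kept within the spread between replicates under all alternatives run, and counts of 0 stayed 0 except as given here. For the medians this spread was an SD of 0.0426 on the log2 scale, larger than the medians themselves, so their signs could change. Without 1 library the median with cytokines ran from -0.0021 to 0.065 in KO and from -0.022 to 0.0085 in Het. In WT it stayed above 0, from 0.0096 to 0.061. With limma voom and quality weights more members were called, and more genes in general: with cytokines 14 higher and 5 lower in WT (19% and 19.7% of all genes by that tool) and 8 and 7 in Het (15.7% and 15.2%), 3 for KO against Het untreated (13%) and 9 for KO against WT with cytokines (23.1%). With no low-count filter, 4 fell in KO, 1 in WT and 0 differed for KO against WT with cytokines. With only the groups compared, 1 fell in Het, 3 in KO and 0 differed for KO against WT with cytokines. In WT 1 member fell under DESeq2 (12.4% of the genes it tested), RLE size factors, and the 3 kinds of replicate block (label number, label number within genotype, metadata number). Without the 2 libraries of lowest quality weight, Het untreated replicate 1 and KO untreated replicate 3, an alternative chosen after seeing the data like the metadata block and the non-robust fit, 4 differed for KO against Het untreated, 2 for KO against WT with cytokines and 3 fell in WT.

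The replicate numbers were not used as pairs. The labels do not say whether same-numbered libraries share a mouse, and the rule asked for every pair to correlate over 0.1: of 9 same-number pairs within a genotype 6 correlated over 0.1 (range -0.22 to 0.39), and 5 pairs correlated best with their own number. With the replicate block 5, 6 and 1 members fell in KO, Het and WT.

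Leaving out 1 library gave 5 to 10 higher and 0 to 2 lower members in WT, 2 to 5 and 2 to 6 in Het, and 8 to 16 and 3 to 7 in KO, 0 to 2 for KO against Het untreated (2 without Het untreated replicate 1) and 0 to 1 for KO against WT with cytokines. The share of all genes called was counted only for the main fit, DESeq2 and limma voom. In the other settings a change in the members' counts cannot be told from a change over all genes.

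Members followed for their place in the particle, whose changes were near 0 and did not pass, changed sign in some settings. With limma voom Mrps18c in Het was at 0.0658 and Mrps30 at 0.0110 in Het and 0.0788 in KO. Without the 2 libraries of lowest weight Mrps12 in KO was at -0.0287, Mrps18c in Het at 0.0151 and Mrps30 in KO at 0.0123. Leaving out 1 library moved Mrps12 from -0.0279 to 0.0974 in KO and from -0.00359 to 0.102 in WT, Mrps18a from -0.0750 to 0.00854 in Het and from -0.0742 to 0.0196 in KO, and Mrps18b from -0.0120 to 0.0651 in KO and from -0.0226 to 0.0458 in WT. It moved Mrps18c from -0.134 to 0.0154 in Het, and Mrps30 from -0.112 to 0.0213 in Het, -0.0847 to 0.0281 in KO and -0.0155 to 0.0462 in WT. The causes were not tested.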
